A study of Mus musculus with 57 samples.

Results

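The S100 calcium-binding genes were followed through 7 embryonic contexts in wt and *Hoxa5*-/- mice. The set holds 9 genes, *S100a1*, *S100a4*, *S100a6*, *S100a8*, *S100a9*, *S100a10*, *S100a11*, *S100a13* and *S100a16*, of 56860 genes in the count and TPM tables, where TPM is a transcript level scaled for gene length and depth. They were picked by name, and the choice was made because *S100a16* was lower in mutant than in wt lung at E12.5. That comparison is therefore given below as a description, and nothing is read from its calls of S100 genes. The tables list 18 genes of the family, 13 of which reached 1 TPM in the mean of a group.

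RNA-seq of polyA-selected RNA was made from trachea, lung and diaphragm at E15.5, lung at E12.5, somites of 2 stages (E10.5, E12.5) and the interscapular brown fat pad at E18.5 (iBAT), with 4 wt and 4 mutant biological replicates per context, except 4 wt and 3 mutants for somites at E10.5 and 5 of each genotype for iBAT. Wt and mutant embryos were of the 129/Sv background, and the mutants were homozygous for a null allele of the homeobox gene *Hoxa5* that interrupts the gene with a neomycin cassette in every cell. Somite samples were trunk pieces of the lower neck and upper chest level without spinal cord primordium, limbs or chest organs, and all samples were whole dissected tissues holding several cell types. The 32 trachea, lung and diaphragm libraries (single-end, 20552280 to 72991481 counts) and the 25 somite and iBAT libraries (paired-end, 18369905 to 28234711 counts) came from different sequencing centres, so a level set across these tables cannot be told apart from the centre.

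S100 proteins are small EF-hand calcium sensors. Most act as dimers that expose a binding surface when calcium is bound and then dock to target proteins such as annexins, and some are secreted and act on receptors such as RAGE and TLR4. Their genes lie largely side by side in the epidermal differentiation region, and single members are used as markers of muscle, fibroblasts, glia or neutrophils.

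All 9 genes lie on chromosome 3 (GRCm39), as do 15 of the 18 listed. From *S100a1* to *S100a9* they span 184.7 kb. *S100a1* (chr3:90418341-90421699, minus strand) and *S100a13* (chr3:90421742-90431888, plus strand) are arranged head to head with starts 42 bases apart, *S100a16* (chr3:90444561-90450458) follows, and *S100a6* (chr3:90520189-90531488) begins 69.73 kb beyond the end of *S100a16*. *S100a8* (chr3:90576285-90577342) and *S100a9* (chr3:90599939-90603028, minus strand) close this group, while *S100a11* and *S100a10* lie 2.825 Mb farther on and 28.79 kb from each other.

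The stretches of 150 bases upstream of the canonical transcription starts of 3 genes (GRCm39 reference sequence, GENCODE annotation) are shown because *S100a16* is the gene the choice rested on and because the levels of *S100a8* and *S100a9* followed each other over the libraries. Capitals mark GCAAT, a core of the C/EBP motif, on either strand (ATTGC on the printed strand). They run from 5′ to 3′ along each gene's own strand, at chr3:90444388-90444537, chr3:90576135-90576284 and chr3:90603072-90603221. The starts are those of a later annotation release than the one behind the gene positions above, and for *S100a16* and *S100a9* they lie slightly upstream of those positions.
*S100a16*: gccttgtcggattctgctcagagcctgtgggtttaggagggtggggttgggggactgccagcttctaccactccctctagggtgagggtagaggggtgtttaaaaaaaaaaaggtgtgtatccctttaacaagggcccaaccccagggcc
*S100a8*: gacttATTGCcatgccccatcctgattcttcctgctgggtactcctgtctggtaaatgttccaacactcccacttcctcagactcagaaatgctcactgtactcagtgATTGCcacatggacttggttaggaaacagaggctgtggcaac
*S100a9*: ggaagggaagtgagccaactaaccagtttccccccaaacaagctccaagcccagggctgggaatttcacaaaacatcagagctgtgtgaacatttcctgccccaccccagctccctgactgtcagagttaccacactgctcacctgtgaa
The *S100a8* window held 2 matches to GCAAT and the other windows none, whereas 13.7% of 21770 windows of this length before protein-coding genes held at least 1. None of the 3 windows held TAAT, the homeodomain core, which 36.2% of all windows held, or TATAAA, the TATA box, which 7.29% held. Both were searched on both strands, and these are matches of letters, not binding sites.

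*Hoxa5* itself, the check of the labels, was lower in the mutants of all 7 contexts, by 0.92 on the log2 scale in somites at E10.5 and by 1.61 to 1.94 in the other 6. Brown fat, skeletal muscle and distal lung epithelium markers were highest in iBAT, diaphragm and lung at E15.5.

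*S100a16*, a broadly expressed member, is the one the choice rested on. In lung at E12.5, wt libraries held 63.4, 33.9, 40.5 and 57.7 TPM of *S100a16* and mutant libraries 14.3, 16.1, 19.996 and 16.7 TPM. Every mutant library lay below every wt library, at 48.9 ± 13.97 TPM in wt against 16.8 ± 2.38 TPM in mutants (mean ± SD, n = 4 each), a fitted log2 difference of -1.53 (SE 0.19). In whole tissue, fewer cells that express a gene and less RNA per cell cannot be told apart.

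In the same comparison the other genes of the set, near and far on the chromosome, did not share one direction. *S100a6*, which encodes calcyclin, held 5.95, 6.09, 7.32 and 7.69 TPM in wt and 3.36, 4.52, 5.62 and 5.58 TPM in mutant lung at E12.5, with a fitted log2 difference of -0.49 (SE 0.18). *S100a11*, which encodes the annexin A1 partner calgizzarin, held 192, 213, 253 and 190 TPM in wt and 252, 319, 320 and 318 TPM in mutants, a log2 difference of 0.52 (SE 0.09). The wt and mutant ranges of *S100a6* were apart, and those of *S100a11* met at 1 library of each genotype. *S100a1* and *S100a13*, the genes on the other side of *S100a16*, differed by -0.02 (SE 0.19) and 0.11 (SE 0.15) on the log2 scale, and *S100a10* by -0.10 (SE 0.07). *S100a9*, at 0 to 2.30 TPM, differed by 1.02 (SE 0.81), and *S100a4* and *S100a8* were below the minimum of 1 TPM.

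A gene counts as called here when edgeR's quasi-likelihood test gives a Benjamini-Hochberg adjusted p under 0.05 over all genes tested and a change of at least 1.5-fold. By that rule 1 of the 7 S100 genes tested in lung at E12.5 was called, beside 0.0798% of all genes, and 2 of the 7 had wt and mutant libraries that did not overlap, beside 4.09% of all genes. The called gene was *S100a16*, and its call was lost when wt replicate 4, mutant replicate 2 or mutant replicate 4 was left out. Both counts come from the comparison that led to the choice, and nothing is read from them. The median log2 difference of the 7 was -0.02, against 0.00 over all genes.

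**Figure D1:**
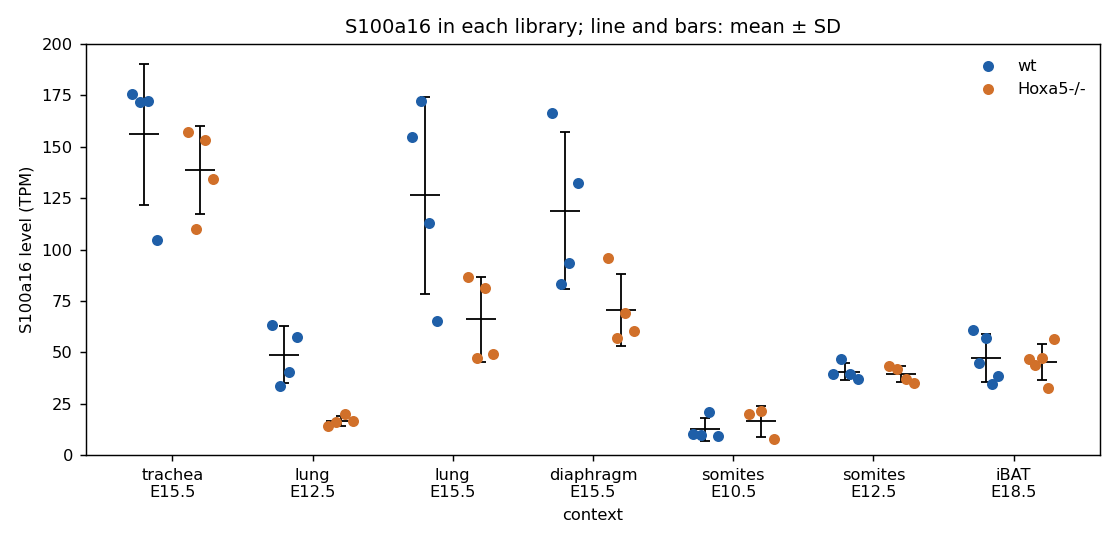
*S100a16* level in TPM in each library, by context, for wt and *Hoxa5*-/-, with group means and SD as lines and bars. The mutant libraries of lung at E12.5 lie between 14.3 and 19.996 TPM, below all wt libraries of that stage, while the genotypes overlap in the other 6 contexts.

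Outside the comparison used for the choice, none of the 9 genes was called between genotypes by edgeR without a replicate block. *S100a16* had its next largest differences in lung and diaphragm at E15.5. In lung at E15.5, wt libraries held 155, 172, 113 and 65.1 TPM and mutants 86.7, 47.2, 81.3 and 49.3 TPM. In diaphragm, wt libraries held 167, 83.5, 93.7 and 132 TPM and mutants 96.1, 57.02, 69.2 and 60.3 TPM. The mutant libraries sat low in both tissues but overlapped the lower wt libraries, with a log2 difference of -0.85 (SE 0.29, adjusted p = 0.627, edgeR) in lung and -0.77 (SE 0.26, adjusted p = 0.258, edgeR) in diaphragm. The unadjusted p of edgeR was 0.0177 and 0.0170. Leaving out a library of lung at E15.5 moved its value between -1.06 and -0.65. Endothelial markers summed to 952.2 to 1140 TPM in the wt and 518.3 to 885.9 TPM in the mutant libraries of that lung, without overlap. The other cell type lists overlapped between genotypes. In all of them but the neutrophil and skeletal muscle lists, the lowest mutant sum lay below the lowest wt sum. For epithelial markers these sums were 1088 against 1750 TPM. A list of other EF-hand calcium sensors, which marks no cell type, likewise had 1808 against 2628 TPM. A single low mutant library can set such a lowest sum. The part of these lists in the result was not tested.

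The other 4 contexts gave smaller differences in *S100a16*. Trachea held 176, 172, 172 and 104 TPM in wt and 157, 110, 154 and 134 TPM in mutants (log2 difference -0.18, SE 0.18). Somites at E10.5 held 10.498, 9.79, 21.1 and 9.40 TPM in wt and 19.9, 21.7 and 7.93 TPM in mutants (0.33, SE 0.34), and somites at E12.5 held 39.3, 46.9, 39.7 and 36.9 TPM in wt and 43.5, 41.9, 37.1 and 35.1 TPM in mutants (-0.04, SE 0.10). In iBAT wt libraries held 61.1, 44.97, 56.95, 34.5 and 38.4 TPM and mutants 46.6, 43.8, 47.4, 32.6 and 56.8 TPM (-0.02, SE 0.17). The genotypes overlapped throughout in these contexts.

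Over the whole set, 0 of 9 genes tested were called in trachea (0.0156% of all genes), 0 of 8 in lung at E15.5 (0.124%), 0 of 8 in diaphragm (0.594%), 0 of 6 in somites at E10.5 (0.0215%), 0 of 8 in somites at E12.5 (0.00529%) and 0 of 8 in iBAT (0.00657%). Without wt replicate 3 of somites at E10.5, 377 of 18573 genes were called there in place of 4. An unadjusted p under 0.05 was reached by 1 gene in trachea, 2 in lung at E15.5, 1 in diaphragm and 0 in the other 3, and DESeq2 likewise called 0 in each of the 6, where it called 0.271%, 0.467%, 2.25%, 0.0969%, 0.0106% and 0.0263% of all genes in the order above. In lung at E12.5, the comparison of the choice, DESeq2 called 1 of the S100 genes and 0.462% of all genes, and nothing is read from that count. The median log2 difference of the set was -0.24 in trachea, -0.30 in lung at E15.5, -0.14 in diaphragm, -0.17 in somites at E10.5, 0.02 in somites at E12.5 and 0.02 in iBAT, against -0.01 to 0.00 over all genes.

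*S100a1*, a regulator of calcium cycling in muscle, was the trachea gene with an unadjusted p under 0.05. Its wt libraries held 103, 97.3, 134 and 63.3 TPM and its mutant libraries 71.5, 51.2, 85.3 and 45.4 TPM, which overlap, with a log2 difference of -0.66 (SE 0.27, adjusted p = 0.736, edgeR). *S100a10*, whose p11 protein pairs with annexin A2, was the second in lung at E15.5, at 147, 163, 180 and 130 TPM in wt and 132, 117, 140 and 90.0 TPM in mutants (log2 difference -0.28, SE 0.10, adjusted p = 0.672, edgeR). *S100a11* stood at 469 to 894 TPM in wt and 344 to 890 TPM in mutant lung at E15.5, with a log2 difference of 0.03 (SE 0.22).

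**Figure D2:**
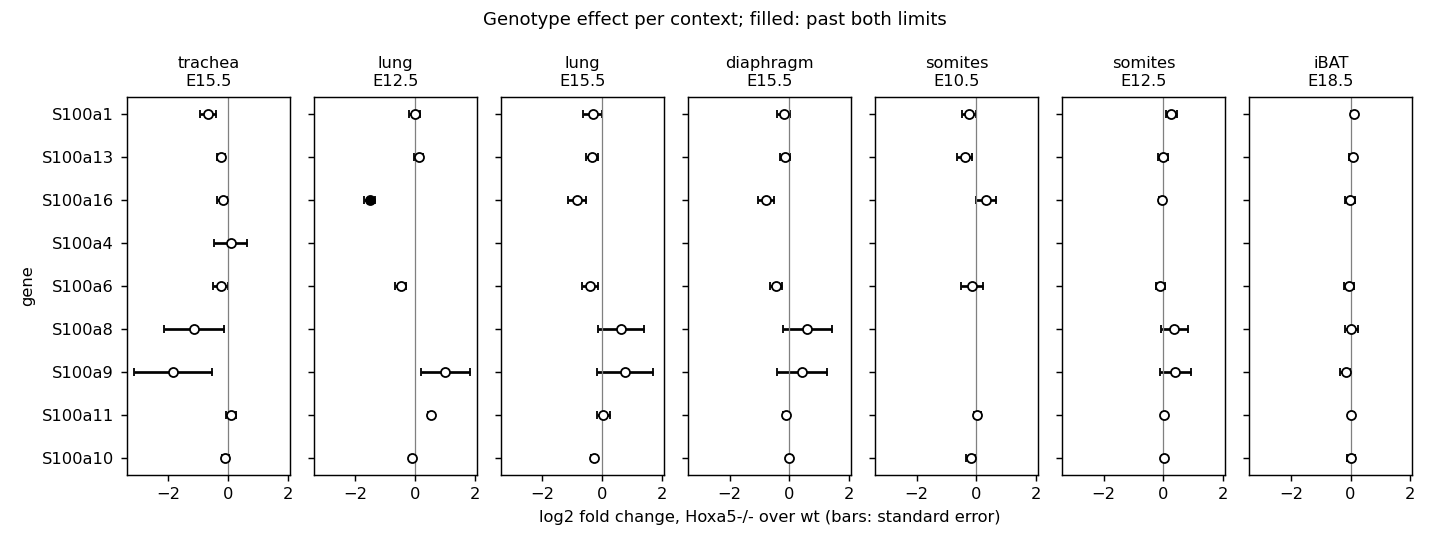
Fitted log2 difference, mutant minus wt, with its standard error, for each S100 gene tested in each context, filled where called. The point of *S100a16* in lung at E12.5, at -1.53, is the only called one, is the one the genes were chosen by, and lost its call without any of 3 of the 8 libraries.

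Whether the genotype difference itself differed between contexts was asked within each table, in 42 fits of these genes over 5 pairs of contexts. *S100a16* for the lung stages is among the 42 as a description, not as a test. Calls here needed only the adjusted p, without a fold minimum. None of the 42 was called, and none had an unadjusted p under 0.05. Of all genes, 0.0267% were called for the lung stages, 0.00502% for trachea and lung and 0.73% for diaphragm and lung. For diaphragm and trachea 0.439% were called, and for the somite stages 0.0147%. Without wt replicate 3 of somites at E10.5, 2571 of 20419 genes were called for the somite stages in place of 3. For *S100a16* the lung difference at E15.5 less the one at the earlier stage was 0.68 on the log2 scale (SE 0.38), given as a description since it includes the comparison of the choice. Trachea minus lung at E15.5 gave 0.66 (SE 0.37) and diaphragm minus trachea -0.57 (SE 0.35), so intervals of 2 SE around each include 0.

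The genes around *S100a16* outside the family were read in the same lung comparison, also as a description. On the side of *S100a1*, *Npr1*, *Ilf2*, *Snapin*, *Chtop* and ENSMUSG00000120231 differed by -0.20, -0.02, -0.25, 0.01 and 0.09 on the log2 scale. On the other side the nearest genes tested that are not of the family were more than 1 Mb away, and *Lor*, *Adrm1b*, *Sprr1a*, *Gm4202* and *Rplp0-ps1* differed by 0.45, 0.14, 1.71, -0.10 and 0.22. None of these 10 was called. Of 40 genes besides *S100a16* tested within 1 Mb of it, which include 4 of the family and the 5 on the side of *S100a1*, 1 was called, the tropomyosin gene *Tpm3* at -0.89 (SE 0.10), 436.4 kb away and named after its value was seen, and their median log2 difference was -0.02. Chromosome 3 carried 5 of the 14 genes called in lung at E12.5, or 35.7%, and 5.15% of the genes tested. Of the 5, *Tlr2* (-1.55), *Tpm3* and *S100a16* were lower in mutants and *Alpk1* (0.61) and *Negr1* (0.85) higher. The 5 include the gene of the choice, and leaving out a library left 5 to 14 called genes over the table, so these shares rest on few genes. The chromosome carried 0 of 22 called genes of the E15.5 lung and 5 of 107 called in diaphragm.

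**Figure D3:**
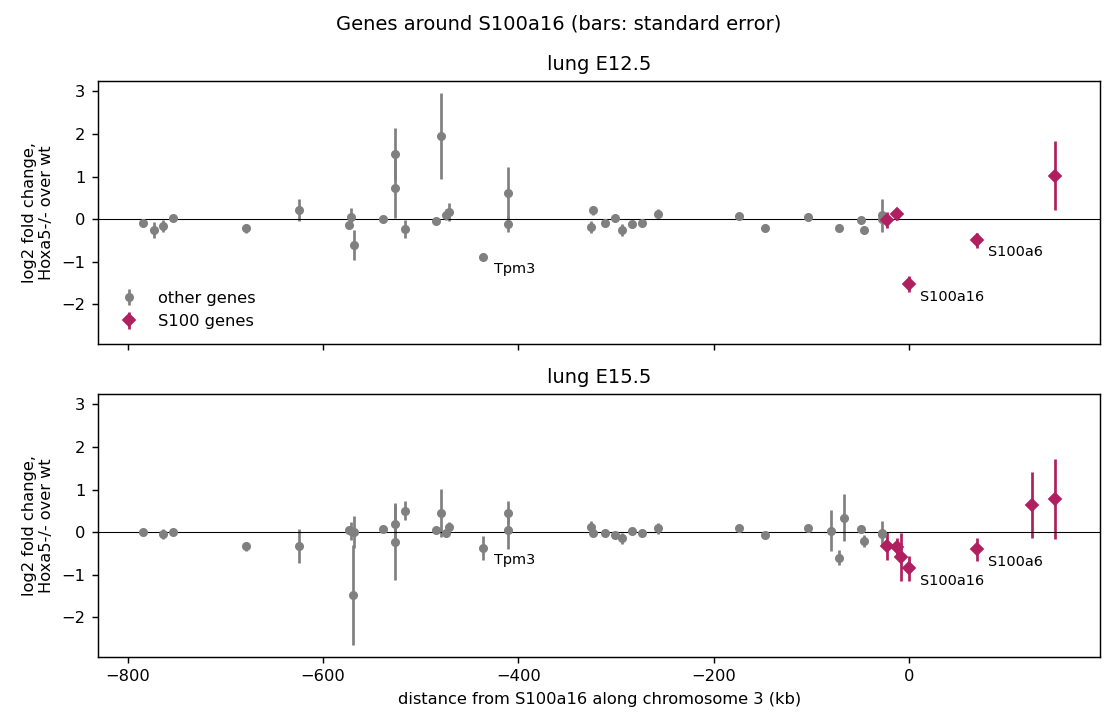
Fitted log2 difference, mutant over wt, with its standard error, for genes tested within 1 Mb of *S100a16*, by distance in kb, in lung at E12.5 (upper panel) and E15.5 (lower panel), S100 genes as diamonds and other genes as grey points. *S100a16* at -1.53 and *Tpm3* at -0.89 are the called genes of the upper panel, where the genes other than *S100a16* have a median of -0.02, and no gene of the lower panel is called.

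Marker lists were read beside the *S100a16* comparison in lung at E12.5. Of the cartilage markers, 2 of 6 tested were called higher, beside 0.0798% of all genes called. They were the cartilage collagens *Col9a1* (log2 difference 1.17, adjusted p = 9.0e-05, edgeR) and *Col9a3* (1.15, adjusted p = 0.0035, edgeR). The sum of the list was 215 to 234 TPM in wt and 266 to 292 TPM in mutants. Mesothelial markers summed to 189 to 225 TPM in wt and 159 to 186 TPM in mutants. Epithelial markers summed to 840 to 958 and 758 to 932 TPM, which overlap, and 0 of 8 were called. Mutant replicate 1 stood apart, with macrophage markers at 93.8 TPM and erythroid markers at 114300 TPM against 14220 to 27140 TPM in the other libraries, and without it the *S100a16* difference was -1.496. The part of these lists in the result was not tested.

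Between tissues and stages the levels differed more widely. *S100a16* was highest in wt trachea (156 ± 34.4 TPM, n = 4), followed by lung at E15.5 (126 ± 47.9) and diaphragm (119 ± 38.0), and these 3 neighbours in the order overlapped. Lung at E12.5 (48.9 ± 13.97), iBAT (47.2 ± 11.6, n = 5) and somites at E12.5 (40.7 ± 4.30) formed a lower group whose libraries overlapped one with the next, and somites at E10.5 were lowest (12.7 ± 5.63).

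*S100a11* and *S100a10*, the annexin partners, were the most abundant in most contexts. *S100a11* held 989, 874, 1556 and 1155 TPM in wt trachea and 820, 868, 841 and 904 TPM in somites at E12.5, which overlap. It fell off through diaphragm (674 ± 62.2 TPM), lung at E15.5 (618 ± 189), iBAT (301 ± 16.4) and lung at E12.5 (212 ± 29.5) to somites at E10.5 (181 ± 13.04). It made up 49.8% to 67.1% of the summed TPM of the 9 genes in wt of every context but iBAT, where it made up 13.5%. *S100a10* was highest in diaphragm, at 430, 444, 358 and 380 TPM, and overlapped step by step with iBAT (340 ± 65.8), somites at E12.5 (314 ± 7.08) and trachea (293 ± 40.7). Lung at E15.5 (155 ± 21.4), lung at E12.5 (78.2 ± 2.26) and somites at E10.5 (71.1 ± 12.8) were lower.

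*S100a1* and its head-to-head neighbour *S100a13*, known for the release of FGF1, had one order of contexts. *S100a1* held 1241, 1305, 1132, 1221 and 1200 TPM in wt iBAT and 1327, 1135, 1293, 1382 and 1193 TPM in mutant iBAT. It was the 99th most abundant gene of wt iBAT and made up 54.8% of the summed TPM of the 9 genes there. Trachea came next at 99.3 ± 28.8 TPM, without overlap, followed by lung at E15.5 (44.8 ± 17.9), diaphragm (34.2 ± 9.59), somites at E12.5 (17.3 ± 3.20), lung at E12.5 (16.5 ± 2.73) and somites at E10.5 (11.4 ± 2.10). *S100a13* held 206, 219, 207, 199 and 180 TPM in wt iBAT, 53.3 ± 5.94 TPM in trachea and 12.2 to 47.6 TPM in the means of the other contexts. Over the 14 group means, log2(TPM + 1) of the 2 genes had a Pearson correlation of 0.97. *S100a13* and *S100a16*, also close neighbours, had one of 0.46. The 14 means hold each context as wt and as mutant. Both iBAT means of *S100a1* and *S100a13* lay far above the rest, and their part in the 0.97 was not tested.

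*S100a6* was highest in trachea. Its wt libraries held 313, 237, 444 and 212 TPM there, far above diaphragm (49.5 ± 13.7) and lung at E15.5 (46.8 ± 15.2), which overlapped each other. iBAT (21.1 ± 4.84), somites at E12.5 (16.2 ± 2.75), lung at E12.5 (6.76 ± 0.87) and somites at E10.5 (2.44 ± 1.07) were lower. *S100a4*, used as a fibroblast marker, was barely present, at 0 to 20 counts per library and at most 4.14 TPM. Of its 584 exon bases 302 are shared with a same-strand transcript, *Gm42674*, listed at 0 counts in all 57 libraries, so its low counts are uncertain.

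**Figure D4:**
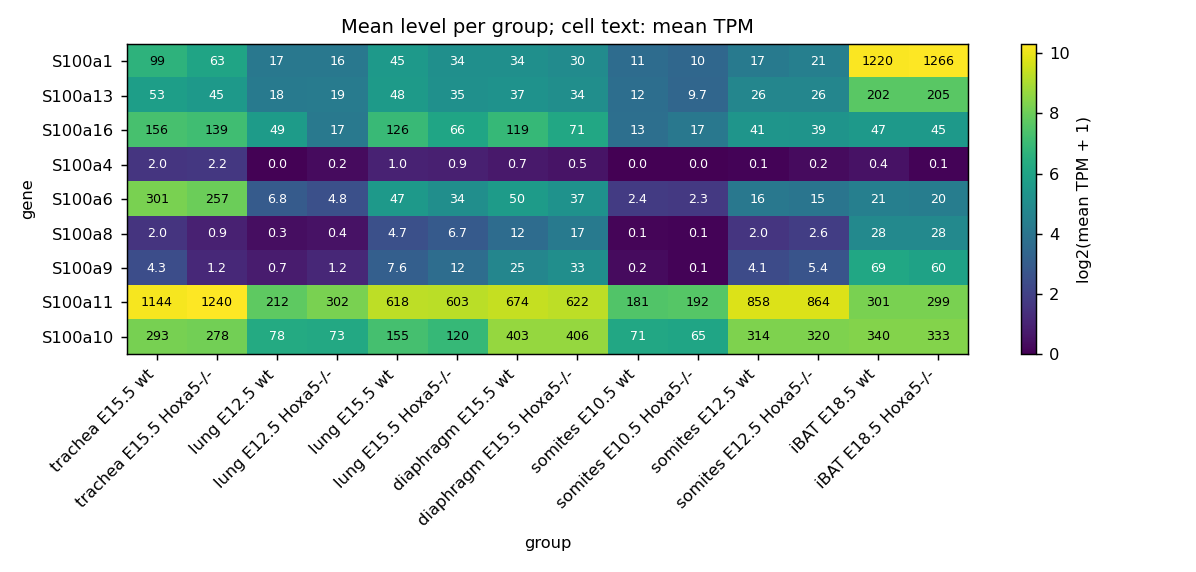
Level of the 9 genes in each of the 14 groups as log2(mean TPM + 1), by context and genotype. *S100a1* and *S100a13* peak in iBAT, *S100a6* in trachea, *S100a8* and *S100a9* in iBAT and diaphragm, and *S100a11* is high in trachea and in somites at E12.5.

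Most of the S100 genes stood higher at the later of 2 stages. From E12.5 to E15.5 in wt lung, 9 of 9 genes tested were called higher, beside 14.5% of all genes called higher and 23.1% called in either direction, and the stages did not overlap for any of the 9, beside 44.3% of all genes. Nothing is read from the count of 9, since *S100a4*, *S100a8* and *S100a9* passed the minimum of 1 TPM only through groups of E15.5, where they were higher, and the E12.5 wt libraries of *S100a16* entered the comparison used for the choice. *S100a6* rose by 2.77 on the log2 scale (SE 0.30, adjusted p = 2.8e-06, edgeR), *S100a11* by 1.52 (SE 0.19), *S100a13* by 1.41 (SE 0.17), *S100a1* by 1.40 (SE 0.29) and *S100a10* by 0.96 (SE 0.11). *S100a16* had a log2 difference of 1.35 (SE 0.31), given as a description. *S100a4*, *S100a8* and *S100a9* held 0 to 2.12 TPM per library at E12.5, where the counts were too few for a fold to be given. The call of *S100a9* (adjusted p = 0.0397, edgeR) was lost without wt E12.5 replicate 1, 2 or 3 or wt E15.5 replicate 2 or 3, with an adjusted p of 0.0634 to 0.137.

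In wt somites, 7 of 8 genes tested were called higher at E12.5 than at E10.5, beside 23.4% of all genes called higher. *S100a8* and *S100a9* passed the minimum only through later groups, where they were higher, so nothing is read from that count, and of the 6 others 5 were called higher. *S100a11* rose by 2.16 on the log2 scale (SE 0.10, adjusted p = 8.8e-13, edgeR), *S100a10* by 2.06 (SE 0.15), *S100a6* by 2.65 (SE 0.26), *S100a16* by 1.62 (SE 0.22) and *S100a13* by 1.003 (SE 0.18). *S100a8* and *S100a9* were listed at 0 in 3 of the 4 wt libraries of E10.5, so no fold is given. *S100a1* differed by 0.51 (SE 0.17), which is under the fold minimum, and passed it without wt E10.5 replicate 1 (0.65) or wt E12.5 replicate 3 (0.60).

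Between tissues of one table the genes parted. Trachea stood above lung at E15.5 for 4 of 9 genes, beside 19.7% of all genes called higher, namely *S100a6* (log2 difference 2.61, SE 0.27), *S100a1* (1.07, SE 0.28), *S100a10* (0.84, SE 0.11) and *S100a11* (0.81, SE 0.19). Wt libraries of *S100a1* (63.3 to 133.7 TPM in trachea, 28.2 to 69.9 in lung) and *S100a11* (874.4 to 1556, 469 to 894.5) overlapped between these tissues. Diaphragm stood above lung at E15.5 for *S100a10* alone of 9 (1.67, SE 0.11), beside 20.2% called higher. Without wt lung replicate 3, which held the most *S100a8* of its group, 4 of 9 were called there, beside 4101 of 20455 genes called higher. The added genes were *S100a8* (2.30), *S100a9* (2.79) and *S100a11* (0.64). Without wt trachea replicate 3, *S100a8* (-3.07) and *S100a9* (-2.90) were called lower in trachea than in lung.

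Against trachea, diaphragm had 3 of 9 genes higher, *S100a8* (2.75, SE 0.80), *S100a9* (2.76, SE 0.95) and *S100a10* (0.83, SE 0.11), and 2 lower, *S100a6* (-2.24, SE 0.27) and *S100a1* (-1.17, SE 0.28), beside 16.1% and 17.3% of all genes. Wt libraries of *S100a8* and *S100a9* overlapped between diaphragm and trachea. The *S100a9* call was lost without wt trachea replicate 1 (2.61) or 2 (2.37) or wt diaphragm replicate 3 (1.86). It was also lost with only the 2 groups in the fit (adjusted p = 0.0654, edgeR). With library totals in place of TMM scaling, an alternative chosen after seeing the data, all genes called moved from 3296 higher and 3544 lower to 2167 and 5342, *S100a10* fell under the fold minimum (0.53), and *S100a11* (-0.70) and *S100a4* (-1.60) were called lower. For diaphragm against lung the split moved from 4129 higher and 3183 lower to 3379 and 4832.

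iBAT at E18.5 against somites at E12.5 compares both tissue and stage. There 7 of 8 genes were called higher, beside 28.4% of all genes, with *S100a1* up by 7.30 on the log2 scale (SE 0.15), *S100a9* by 5.21 (SE 0.31), *S100a8* by 4.92 (SE 0.31) and *S100a13* by 4.13 (SE 0.16). *S100a6* (1.54), *S100a16* (1.38) and *S100a10* (1.28) were also called, but their TPM libraries overlapped between the tissues, and *S100a11* went from 858 ± 36.0 to 301 ± 16.4 TPM with a log2 difference of -0.35 (SE 0.09) under the fold minimum. With library totals the calls of those 3 stood at 0.94, 0.78 and 0.68, and *S100a11* was called lower (-0.95). The same scaling moved the median of all genes from -0.24 to -0.83 and the calls from 5867 higher and 7437 lower to 4116 and 10670.

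*S100a8* and *S100a9* form calprotectin, the zinc-binding dimer of neutrophils. In 30 libraries with at least 10 counts of *S100a8*, *S100a9* stood at 0.855 to 2.91 times the TPM of *S100a8*, with a median of 2.06. Over the 57 libraries log2(TPM + 1) of the pair had a Pearson correlation of 0.98, and over the 14 group means the genes most like *S100a8* were *S100a9* (0.996), *Cstdc5* (0.977) and *Stfa2l1* (0.973), of 23490 genes compared. Libraries of one group were far apart. Wt diaphragm held 6.22, 6.49, 28.1 and 5.86 TPM of *S100a8* and 10.3, 16.8, 61.6 and 12.54 TPM of *S100a9*. Mutant diaphragm held 7.58, 2.50, 27.1 and 32.6 TPM of *S100a8* and 10.1, 5.63, 51.3 and 65.9 TPM of *S100a9*. So 1 wt and 2 mutant libraries were high for both genes, and the genotypes overlapped.

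A list of 13 neutrophil genes other than this pair summed to 80.4 to 89.7 TPM in those 3 diaphragm libraries and to 11.2 to 24.4 TPM in the other 5. In wt lung at E15.5 *S100a8* held 2.06, 4.74, 10.3 and 1.49 TPM and in mutant lung 3.89, 1.18, 15.9 and 5.68 TPM, and in wt trachea 0.882, 0.351, 6.16 and 0.483 TPM. Replicate 3 was the highest library in each of these groups. In iBAT *S100a8* was high in every library, at 39.8, 24.5, 25.8, 22.6 and 28.2 TPM in wt and 35.7, 22.1, 36.9, 17.8 and 26.6 TPM in mutants. The neutrophil list summed to 18.53 to 31.4 TPM there, close to the 17.4 to 27.6 TPM of somites at E12.5, where *S100a8* held 0.816 to 4.18 TPM. The list's makeup differed, with *Mmp9* at 14.1 TPM in wt somites at E12.5 and 1.02 TPM in wt iBAT, and *Retnlg* at 0.45 and 6.80 TPM. The granule enzyme genes *Mpo* and *Elane* stood at 6.33 and 4.78 TPM in wt diaphragm and at 0.43 and 0.95 TPM in wt iBAT. The part of neutrophils in these levels was not tested.

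**Figure D5:**
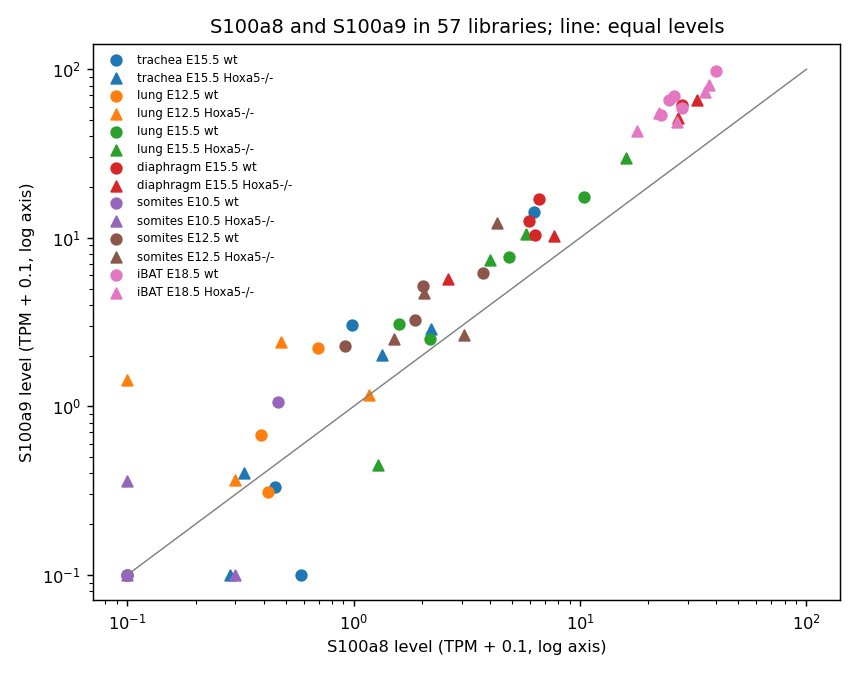
*S100a9* level against *S100a8* level in each library, both in TPM on log axes after a small constant was added, coloured by context, with circles for wt, triangles for *Hoxa5*-/- and a line of equal levels. Most libraries with *S100a8* above 1 TPM lie above that line, with the iBAT libraries and 3 diaphragm libraries at the upper end.

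By the same measure, the genes most like *S100a16* were *Ccdc107* (0.950), *Tmbim1* (0.945) and *Lncppara* (0.938), and within the set *S100a6* (0.93). Those most like *S100a10* were *Aspn* (0.967), *Postn* (0.966) and *Lgals1* (0.961), of which *Postn* encodes a matrix protein of connective tissue. These are descriptions over 14 group means that share tissue and sequencing centre within each table.

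Of the rest of the family, *S100b*, the glial and adipocyte member on chromosome 10, stood at 74.3 ± 15.1 TPM in wt iBAT (n = 5), 34.4 ± 9.61 in trachea and 27.3 ± 5.55 in somites at E12.5. *S100a14*, an epithelial member that lies between *S100a13* and *S100a16*, stood at 71.1 ± 21.1 TPM in wt trachea and was near 0 in lung at E12.5. In diaphragm it held 7.77, 13.2, 1.67 and 0.287 TPM in wt and 0.586, 0.480, 0.241 and 0.141 TPM in mutants, with a log2 difference of -3.96 (SE 1.04, adjusted p = 0.151, edgeR), so it was not called. *S100g* reached 9.42 ± 8.06 TPM in wt iBAT and *S100a7a* 4.63 ± 2.55 TPM in wt trachea, and none of these 4 was called between genotypes in any context.

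The partners and receptors of S100 proteins were taken as a list of 15 genes, among them annexins, the receptor genes *Ager* and *Tlr4*, and the ryanodine receptors. Between genotypes 0 were called in any context, of 11 to 15 tested, beside 0.00529% to 0.594% of all genes. *Anxa2*, the partner of *S100a10*, stood at 154 ± 21.5 TPM in wt and 149 ± 6.75 TPM in mutant lung at E12.5. *Anxa1*, the partner of *S100a11*, ranged from 17.96 to 64.1 TPM in wt and from 12.2 to 18.7 TPM in mutant diaphragm, with a log2 difference of -1.26 (SE 0.37, adjusted p = 0.200, edgeR). *Ahnak*, bound by *S100a10* with annexin A2, stood at 16.7 ± 1.84 TPM in wt and 14.8 ± 3.44 TPM in mutant lung at E12.5, a log2 difference of -0.17 (SE 0.12).

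In diaphragm other lists moved between genotypes beside the values of *S100a16*, *S100a14* and *Anxa1*. Among Schwann and neural crest markers, *Tubb3*, *Fabp7* and *Sox10* were called lower. Of 8 epithelial markers 1 was called lower, *Esrp1*, beside 0.594% of all genes called. Epithelial markers summed to 65.0 to 364 TPM in wt and 48.2 to 137 TPM in mutants. Basal and squamous epithelium markers summed to 15.7 to 561 TPM in wt and 18.47 to 29.29 TPM in mutants (median log2 difference -5.45). Distal lung epithelium markers summed to 52.34 to 494.1 TPM in wt and 57.74 to 74.27 TPM in mutants (median -4.83). In both of these lists the lowest wt sum lay below the lowest mutant sum, and no gene of either was called. The glial member *S100b* differed by -0.18 there (SE 0.58). Their part in the S100 values was not tested.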

How the data were processed

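RNA-seq libraries of 7 contexts were grouped by tissue, stage and genotype from the sample labels. Reads had been trimmed (Trim Galore 0.6.5), aligned to GRCm39 (STAR 2.7.9a) and assigned to genes (featureCounts 2.0.3), and the strand setting is not given in the sources used here. The deposited counts are whole numbers without normalization. From them and exon length the authors derived the TPM values.

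Genotypes were compared within each context, wt tissues and stages and differences of genotype effects within each table, by the quasi-likelihood test of edgeR 4.0.16 (R 4.3.3) on the counts with TMM scaling, for genes with a mean of at least 1 TPM in a group. A call needed a Benjamini-Hochberg adjusted p under 0.05 and a 1.5-fold change, except that differences of genotype effects had no fold minimum. Scripts were tested on simulated data. The alternatives were DESeq2 1.42.0, its size factors, no filter or at least 10 counts, 1 fit per table, only the 2 groups, a replicate block, each library left out and, added after seeing the data, library totals. Levels used TPM as given, and correlations used log2 of TPM with a pseudocount of 1 (Python 3.11.15).

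The genes and lists were chosen with earlier results of these data known. Named besides them were family genes at 1 TPM or more, the nearest 5 tested genes on either side of *S100a16*, *Anxa1*, *Anxa2* and *Ahnak*, the 3 genes most like *S100a16*, *S100a8* and *S100a10*, called markers, and *Hoxa5*. Some marker genes are not reported here. In iBAT same-numbered samples have names that share a leading number, and replicates 4 and 5 share the same one. Their deviations correlated by 0.105 to 0.279 in all 5 pairs, and the labels do not state a pairing.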

Additional observations from a re-analysis of the deposited data

Results flagged for a closer look

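Among 100 combinations of a gene and a group of 4 or 5 libraries, 8 held a library that stood apart from its group by Dixon's criterion. Chance flags about 1 in 20, and combinations that share libraries are not independent. *S100a16* was low in wt trachea replicate 4, at 104.5 against 171.8 to 175.5 TPM, and high in wt somites at E10.5 replicate 3, at 21.12 against 9.40 to 10.498 TPM. *S100a13* was low in wt lung at E12.5 replicate 2, at 14.86 against 18.37 to 18.76 TPM. *S100a11* was low in mutant lung at E12.5 replicate 1, at 252.2 against 317.6 to 319.5 TPM, and high in mutant somites at E12.5 replicate 2, at 917.5 against 842.5 to 849.1 TPM. *S100a8* was high in wt trachea replicate 3, at 6.158 against 0.351 to 0.882 TPM, and in wt diaphragm replicate 3, at 28.07 against 5.86 to 6.49 TPM, where *S100a9* was high too, at 61.64 against 10.3 to 16.8 TPM.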

How the results depend on the processing

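Of 436 values of the genotype comparison under alternatives other than leaving out a library, 434 kept their direction and their side of the threshold. The replicate block took the call of *S100a16* in lung at E12.5 away (log2 difference -1.49), leaving 0 called S100 genes. In diaphragm the block called *S100a16* (-0.74, adjusted p = 0.0233, edgeR), giving 1. Same-numbered libraries did not deviate together in all pairs of either context, and each of the 8 libraries correlated best with its own number in 0 cases in lung at E12.5 and 6 in diaphragm. In iBAT the block changed no call of these genes. Leaving out a library gave 0 to 1 called S100 genes in lung at E12.5, with 0 without wt replicate 4 (-1.45), mutant replicate 2 (-1.49) or mutant replicate 4 (-1.51). The block also called *S100a8* lower in wt trachea than in lung at E15.5 (-1.48, adjusted p = 0.0296, edgeR). For diaphragm against lung, called S100 genes were 3 with the block, beside 7376 of 20455 genes, and 2 with only the 2 groups, beside 7269. They were 1 to 4 when a library was left out, beside 6908 to 7429 of all genes. The cause of these changes was not tested.

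DESeq2 called 52, 81, 83, 406, 18, 2 and 4 genes over the whole table in trachea, lung at E12.5, lung at E15.5, diaphragm, earlier and later somites and iBAT, against 3, 14, 22, 107, 4, 1 and 1 by edgeR. With the block these were 1, 4, 104, 358, 0, 2 and 2, and with all libraries in 1 fit they were 40 in trachea, 38 in lung at E15.5, 355 in diaphragm, 28 and 2 in the earlier and later somites and 3 in iBAT. Without a filter they were 32 in lung at E12.5, 196 in diaphragm, 147 and 10 in the earlier and later somites and 6 in iBAT. *S100a4*, and *S100a8* and *S100a9* outside iBAT and diaphragm, rest on few counts.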
